A study of Arabidopsis thaliana with 6 samples.

Results

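The AIG1/IAN cluster is a run of 10 Arabidopsis genes on chromosome 1, from IAN1 at chr1:12279947-12281406 to IAN9 at chr1:12349304-12351318 (TAIR10), a span of 71.4 kb. The 10 genes were taken by locus identifier from a table of 32962 genes. They are IAN1, AT1G33870, IAN2, IAN3, IAN4, IAN5, IAN6, IAN7, AIG1 (which the table's protein names also call IAN8) and IAN9, in order along the chromosome. The family is taken here as 14 genes, each with an IAN protein name, and the other 4 lie on chromosomes 2 and 4. AT1G33870 carries the protein name IAN4, as does the member with the symbol IAN4 (AT1G33900). The cluster was picked with the difference between the genotypes already known, above all that of AIG1, so its differences between the genotypes are given here as a description with no test.

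These genes encode GTP-binding proteins of a family that plants share with vertebrates, where the members are called GIMAPs and act in immune cells. AIG1 takes its name from its discovery in Arabidopsis, as a transcript induced when the immune receptor RPS2 recognises the bacterial effector AvrRpt2. IAN9 has been described in Arabidopsis as a restraint on resistance to bacteria, and clustered IAN genes have been described as acting at the endoplasmic reticulum, where they affect heat tolerance through the unfolded protein response. For the other members no role is given here.

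Wild-type Col-0 plants (3 libraries) were compared with EsANAC029-OE plants (3 libraries), which overexpress EsANAC029, a NAC-type regulator from Elymus sibiricus, a forage grass, in a study of the response to light. Total RNA came from whole seedlings of 25 days, kept at 25 °C in a day of 16 h light and 8 h dark. The sources used here do not give the transgene's promoter, how many lines were used, or whether plants were pooled. They also do not say that replicates came from separate plantings, so p-values measure the spread between these libraries, which may be technical. The libraries held 19608819 to 21715274 reads in genes. Over tested genes EsANAC029-OE replicate 1 correlated with the wild-type libraries at 0.691 to 0.734, against 0.857 to 0.899 for replicates 2 and 3, so results that rest on it are also given without it. All 4 leaf markers were abundant, and all 4 were lower in EsANAC029-OE without overlap, with none called. Of all tested genes 39.9% did not overlap in either direction, and 19.6% were higher without overlap. RBCS-1A, for example, measured 12828 to 16559 FPKM in wild type, against 1430, 5350 and 9279 FPKM in EsANAC029-OE. The 4 root markers stayed at or below 0.209 FPKM in every library. Of the 4 flower markers SEP3 reached 3.17 FPKM in EsANAC029-OE replicate 2, and no other reached 1 FPKM. In such whole seedlings a change in the number of cells of a type and a change in RNA per cell cannot be told apart, and the part of the leaf markers' decline in the results below was not tested.

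The 250 bases before the annotated start are printed for the 4 members with more than 1 read, because these 4 behaved differently from each other. They were read from the RefSeq TAIR10.1 assembly, where the coordinates of all 14 family genes were identical to the table's. The windows are chr1:12345888-12346137 (plus strand) for AIG1, chr1:12340410-12340659 (minus strand) for IAN7, chr1:12323224-12323473 (plus strand) for IAN6 and chr1:12351319-12351568 (minus strand) for IAN9. Capitals mark matches, on either strand, to TTGAC (the core of the W-box bound by WRKY factors), TGACG (the core bound by TGA factors) or CACG (a core bound by NAC factors); the first 2 share letters where TTGACG occurs.

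AIG1: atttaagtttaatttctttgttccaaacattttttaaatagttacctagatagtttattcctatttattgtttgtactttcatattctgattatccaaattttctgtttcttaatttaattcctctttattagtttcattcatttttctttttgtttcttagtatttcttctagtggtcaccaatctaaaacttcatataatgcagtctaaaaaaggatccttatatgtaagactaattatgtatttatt
IAN7: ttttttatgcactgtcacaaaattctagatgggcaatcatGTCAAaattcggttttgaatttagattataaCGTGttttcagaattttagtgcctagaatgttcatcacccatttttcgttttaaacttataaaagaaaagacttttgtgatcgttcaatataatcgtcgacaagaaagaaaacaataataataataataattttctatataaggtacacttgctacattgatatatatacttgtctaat
IAN6: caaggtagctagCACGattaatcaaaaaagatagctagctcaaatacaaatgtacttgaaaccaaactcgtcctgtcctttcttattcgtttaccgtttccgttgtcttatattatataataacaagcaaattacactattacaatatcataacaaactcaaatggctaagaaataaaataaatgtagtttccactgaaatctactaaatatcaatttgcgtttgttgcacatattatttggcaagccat
IAN9: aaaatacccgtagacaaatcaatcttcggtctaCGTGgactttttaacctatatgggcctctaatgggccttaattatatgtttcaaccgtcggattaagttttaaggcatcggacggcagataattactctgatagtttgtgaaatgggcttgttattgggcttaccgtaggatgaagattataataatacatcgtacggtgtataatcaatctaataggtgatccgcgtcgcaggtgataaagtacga

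The AIG1 window held none of these letters and was 22.8% G and C. The IAN7 window held TTGAC and CACG once each, both read on the opposite strand, and was 26.8% G and C. The IAN6 and IAN9 windows held CACG once each, at 30.8% and 39.2% G and C. Among windows of the same length before 27419 nuclear protein-coding genes, 44.9% held TTGAC, 18.6% TGACG and 45.6% CACG. In the cluster 4 of 10 windows held TTGAC, 1 of 10 TGACG and 7 of 10 CACG. The matches are a description of letters in these windows. IAN7 has 2 annotated transcripts, and the window lies before the start of the longer. AIG1 also has 2, IAN9 has 5 and IAN6 has 1, and each window lies before the annotated start of the gene as a whole.

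Of the 10 members 5 gave no reads in these seedlings. IAN1, AT1G33870, IAN3, IAN4 and IAN5 had 0 reads in all 6 libraries, which was also the case for 16.4% of protein-coding genes in the table. IAN2 had 1 read in EsANAC029-OE replicate 2 and 0 in the others. At this depth a count of 0, taken as allowing up to 3 reads, leaves room for levels of up to 0.240 FPKM for IAN1, 0.187 FPKM for AT1G33870, 0.120 FPKM for IAN3, 0.166 FPKM for IAN4 and 0.180 FPKM for IAN5 in the library with the highest limit, so lower levels were not detectable. These limits cover counting error only. FPKM is fragments per kilobase of gene length, scaled per library, so levels of different genes can be set side by side. The deposited scale was not the read total alone. It equals the read total times 0.920, 0.883 and 0.872 in wild-type replicates 1, 2 and 3, and times 1.06, 1.25 and 1.15 in those of EsANAC029-OE. Against scaling by library size alone, this lowers EsANAC029-OE levels relative to wild type.

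AIG1 went from near the bottom of the transcriptome to its upper end. AIG1 (AT1G33960, chr1:12346138-12348733, plus strand) measured 0.227, 0.940 and 0.276 FPKM in wild-type replicates 1, 2 and 3. In EsANAC029-OE replicates 1, 2 and 3 it measured 186, 125 and 187 FPKM. All 3 overexpressor libraries were far above all 3 wild-type libraries, and replicate 2 was the highest of its group in wild type and the lowest in EsANAC029-OE. The reads behind these levels were 8, 31 and 9 in wild type and 7548, 5732 and 7445 in EsANAC029-OE. The ratio of the group means was 345, and the log2 difference on log2(FPKM + 1) was 6.82 (SE 0.263). Ranked by FPKM within a library, AIG1 stood at places 19093, 16939 and 18858 in wild type, where 21439 to 21531 genes were above 0, and at places 385, 617 and 344 in EsANAC029-OE. Its log2 difference was the 4th highest of 17221 genes tested. Without EsANAC029-OE replicate 1 it was 6.73.

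IAN7, the next gene upstream of AIG1, was read in the overexpressor alone. IAN7 (AT1G33950, chr1:12332834-12340409, minus strand) had 0 reads in each wild-type library and 315, 77 and 57 reads in EsANAC029-OE replicates 1, 2 and 3. These correspond to 11.4, 2.46 and 2.10 FPKM, so replicate 1 was far above the other two and the groups did not overlap. Set against 3 reads per wild-type library, the mean of EsANAC029-OE was at least 39.3-fold higher, and without replicate 1 at least 16.9-fold higher. The log2 difference on log2(FPKM + 1) was 2.35 (SE 0.537), and 1.71 without replicate 1. Against a group at 0 this value depends on the constant added: it was 5.33 with a pseudocount of 0.1 and 7.47 with limma-voom.

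IAN6 and IAN9 did not separate the genotypes. IAN6 (AT1G33930, chr1:12323474-12327311, plus strand) measured 0.941, 1.25 and 1.67 FPKM in wild type, and 0, 1.65 and 1.40 FPKM in EsANAC029-OE. The 0 in EsANAC029-OE replicate 1, where 3 reads would be 0.0982 FPKM, lay below all other libraries, and the other 2 overexpressor libraries lay within the wild-type range. The log2 difference was −0.29 (SE 0.407) with all libraries and 0.15 without that one, so its sign rests on replicate 1. IAN9 (AT1G33970, minus strand) measured 48.0, 65.0 and 42.9 FPKM in wild type, and 66.2, 36.3 and 40.8 FPKM in EsANAC029-OE, from 1405 to 2699 reads. The highest value of IAN9 in each group, that of wild-type replicate 2 and that of EsANAC029-OE replicate 1, differed little, and the groups overlapped. The group means of IAN9 were 52.0 ± 11.5 and 47.8 ± 16.1 FPKM (mean ± SD, n = 3 each), a log2 difference of −0.15 (SE 0.284). Scaled by library size alone, it was 0.21.

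**Figure D1:**
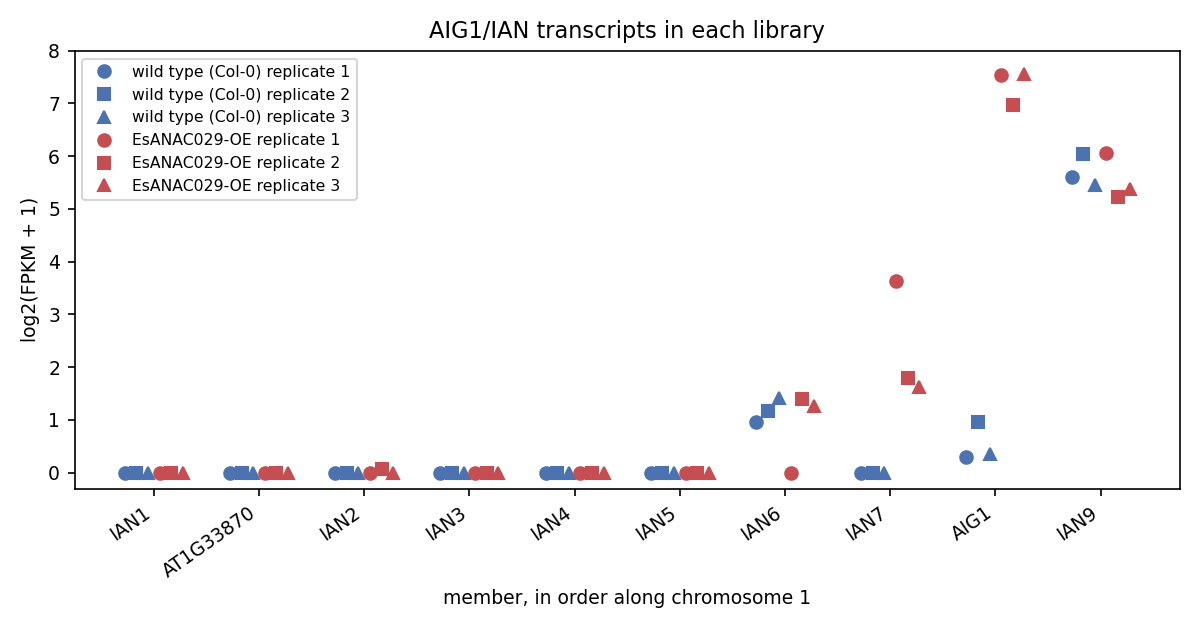
Level of each of the 10 members as log2(FPKM + 1) in each library, with wild type in blue, EsANAC029-OE in red and a symbol per replicate. AIG1 spans 0.227 to 0.940 FPKM among wild-type libraries and 125 to 187 FPKM in EsANAC029-OE, IAN7 is above 0 in EsANAC029-OE alone, IAN9 is high in both groups, and 6 members lie at or next to 0.

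The order of levels within the cluster changed with the genotype. In wild type IAN9 was highest, IAN6 followed at 0.941 to 1.67 FPKM, and AIG1 came next at 0.227 to 0.940 FPKM, with the ranges of these last 2 touching. In EsANAC029-OE AIG1 was highest, followed by IAN9 at 36.3 to 66.2 FPKM, IAN7 at 2.10 to 11.4 FPKM and IAN6 at 0 to 1.65 FPKM, and none of these 4 ranges overlapped its neighbour in the order. IAN9 exceeded AIG1 by 212, 69.1 and 155 times in wild-type replicates 1, 2 and 3, and AIG1 exceeded IAN9 by 2.81, 3.43 and 4.58 times in EsANAC029-OE. AIG1 made up 0.461%, 1.40% and 0.616% of the summed FPKM of the 10 members in wild type and 70.6%, 75.5% and 80.8% in EsANAC029-OE. The summed FPKM itself was 49.2, 67.1 and 44.9 in wild type and 264, 165 and 231 in EsANAC029-OE.

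Of the 10 members 4 reached 1 FPKM in at least 3 libraries and entered the fit across all genes. AIG1 and IAN7 entered it through EsANAC029-OE alone. In that fit (limma-trend, Benjamini-Hochberg adjusted p under 0.05) 1 of the 4 was called, AIG1, where 7.89% of all 17221 tested genes were called. Of the 4, 2 did not overlap between the groups, AIG1 and IAN7, both higher in EsANAC029-OE, where 39.9% of tested genes did not overlap and 19.6% were higher without overlap. Over all genes 743 calls were higher and 616 lower, and 2749 and 377 with library size alone as the scaling, which shifts the median log2 difference from −0.01 to 0.31. Because the cluster was picked from this contrast, nothing is read from these counts.

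The members are related but far from identical. Over the 45 pairs of members the coding sequences shared 62.8% to 75.0% of the bases paired in a global alignment, with a median of 68.4%. The closest relative of AIG1 was IAN7 and the reverse, at 74.1%, and the next closest to AIG1 was IAN3 at 69.5%. IAN9 was closer to AT4G09940, outside the cluster (70.9%), than to any member. IAN4 and IAN6 shared 74.1%, IAN3 and IAN5 74.0%, and IAN1 and AT1G33870 75.0%. In all 10 members each stretch of 100 bases within an exon occurred once in the genome (100% of windows), and no member overlapped another gene of the table. The coding part of AIG1 is 1134 bases in 6 exons, and those of IAN7 and IAN9 are 936 and 1029 bases in 5 exons each.

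**Figure D2:**
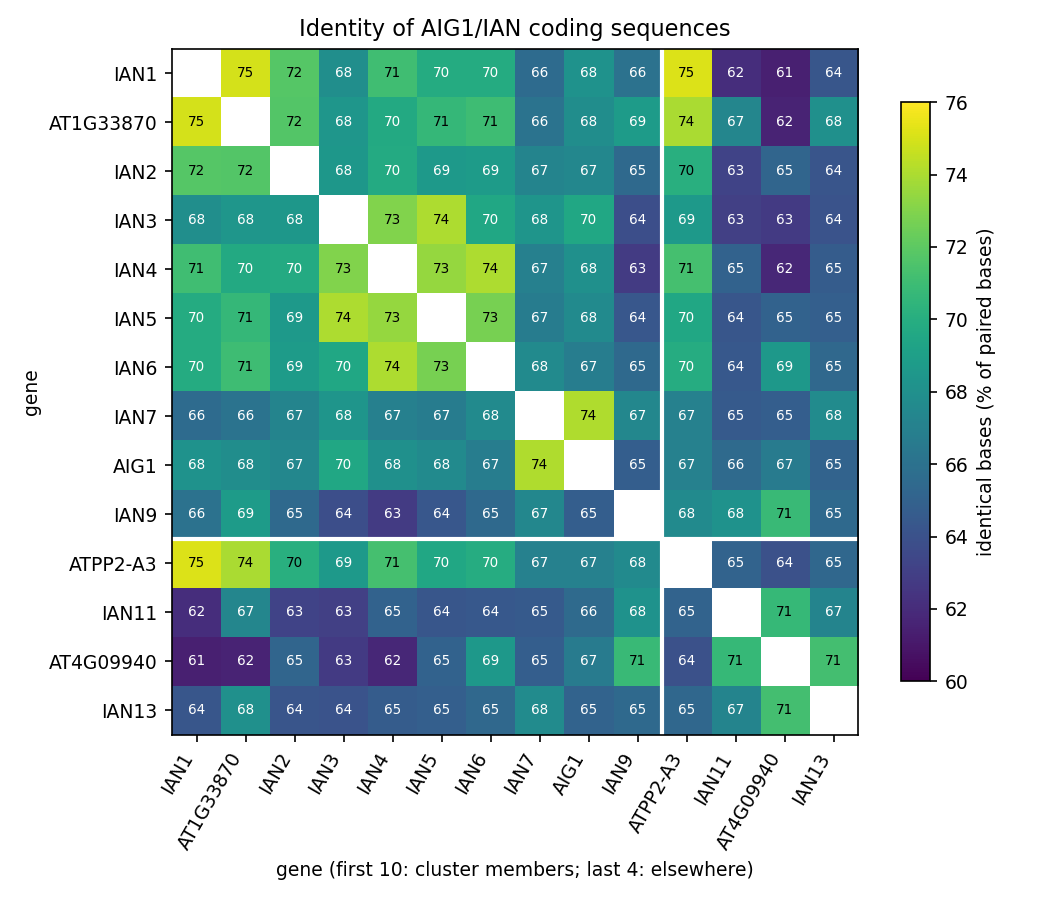
Percentage of identical bases in pairwise alignments of the coding sequences of the 10 members and the 4 family genes elsewhere, with the scale from dark (low) to yellow (high). AIG1 and IAN7 form a pair at 74.1%, and IAN9 is nearer to AT4G09940 at 70.9% than to any member.

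The 4 family genes outside the cluster, ATPP2-A3 (IAN10), IAN11, AT4G09940 (IAN12) and IAN13, showed no rise like that of AIG1. IAN13 (AT4G09950) measured 3.27, 2.47 and 3.06 FPKM in wild type, and 1.98, 2.77 and 1.71 FPKM in EsANAC029-OE. Its groups overlapped and it was not called (log2 difference −0.33, SE 0.205, limma adjusted p = 0.340). ATPP2-A3 did not exceed 0.187 FPKM, IAN11 was above 0 in wild-type replicate 2 alone at 0.0516 FPKM, and AT4G09940 was at 0 in every library.

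By position, the high genes were not a continuous block. The 37 genes examined along the chromosome were the 10 members, the 7 other genes between the first and the last of them, and 10 on each side. IAN7 and AIG1 stand in opposite orientation with 5728 bases between their starts, and IAN9 faces AIG1 with 570 bases between their ends. On the far side of IAN9, 247 bases from its start, lies ATUPF3, which acts in nonsense-mediated decay. ATUPF3 measured 18.1, 20.0 and 17.9 FPKM in wild type, and 32.5, 19.9 and 24.5 FPKM in EsANAC029-OE, and it was not called (limma adjusted p = 0.248). Scaled by library size alone it was called higher (limma adjusted p = 0.0317). MES14, a predicted methyl esterase, follows and was not called either (log2 difference 0.06, limma adjusted p = 0.872).

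Of the 7 other genes inside the cluster AT1G33840 rose. This gene, named LURP-one-related 1 in the table, lies between IAN1 and AT1G33870, with its lower coordinate at −62.4 kb from the start of AIG1 (chr1:12283725-12285371, minus strand). It measured 0.176, 0.611 and 0 FPKM in wild type, and 6.22, 4.88 and 7.82 FPKM in EsANAC029-OE, from 4, 13 and 0 reads and from 163, 145 and 201 reads. Every overexpressor library was above every wild-type library (log2 difference 2.54, SE 0.263, limma adjusted p = 0.00854). Its p-value is given as a description, because AT1G33840 entered the fit through EsANAC029-OE alone. Of these 7 genes it was the 1 tested. Over the 13 alternatives it was higher in all, and its adjusted p ran from 0.00502 to 0.0678, with the call lost without wild-type replicate 1, without wild-type replicate 3 and with a replicate block. PP2A4, AT1G33850, AT1G33860, AT1G06713 and AT1G33945 had 0 reads in every library. AT1G33940, which starts 48 bases from the end of IAN7, had 4 reads in EsANAC029-OE replicate 1, 2 in replicate 3 and 0 elsewhere.

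Among the 20 flanking genes 12 were tested and 3 fell. OHP2, a one-helix protein of the chloroplast related to the light-harvesting antenna (AT1G34000), fell from 182, 171 and 179 FPKM to 38.8, 52.2 and 80.2 FPKM (log2 difference −1.68, SE 0.282, limma adjusted p = 0.0270). AT1G33770, a predicted protein kinase, and AT1G33780, which overlap each other, had log2 differences of −1.44 and −0.97 (limma adjusted p = 0.0316 and 0.0277). AT1G33770 entered the fit through wild type alone, so its p-value is given as a description. OHP2 overlaps the end of MES14, and no source used here says whether reads were counted by strand, and how reads were divided between these overlapping genes is uncertain. In all, 4 of 13 tested neighbours were called, 1 higher and 3 lower, where 4.31% of all tested genes were called higher and 3.58% lower. This count is a description, because AT1G33840 and AT1G33770 each entered the fit only through the group where they are high. Without wild-type replicate 1 or 3, or with a replicate block, 0 of them were called (with all libraries, 2 were higher and 3 lower at an unadjusted p under 0.05, where 28.3% of all tested genes passed, 13.6% higher and 14.7% lower). Without wild-type replicate 2 or EsANAC029-OE replicate 2, 1 was called, AT1G33840. Without EsANAC029-OE replicate 3, AT1G33770 was not called. With library size alone AT1G33780 was not called (limma adjusted p = 0.0573).

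**Figure D3:**
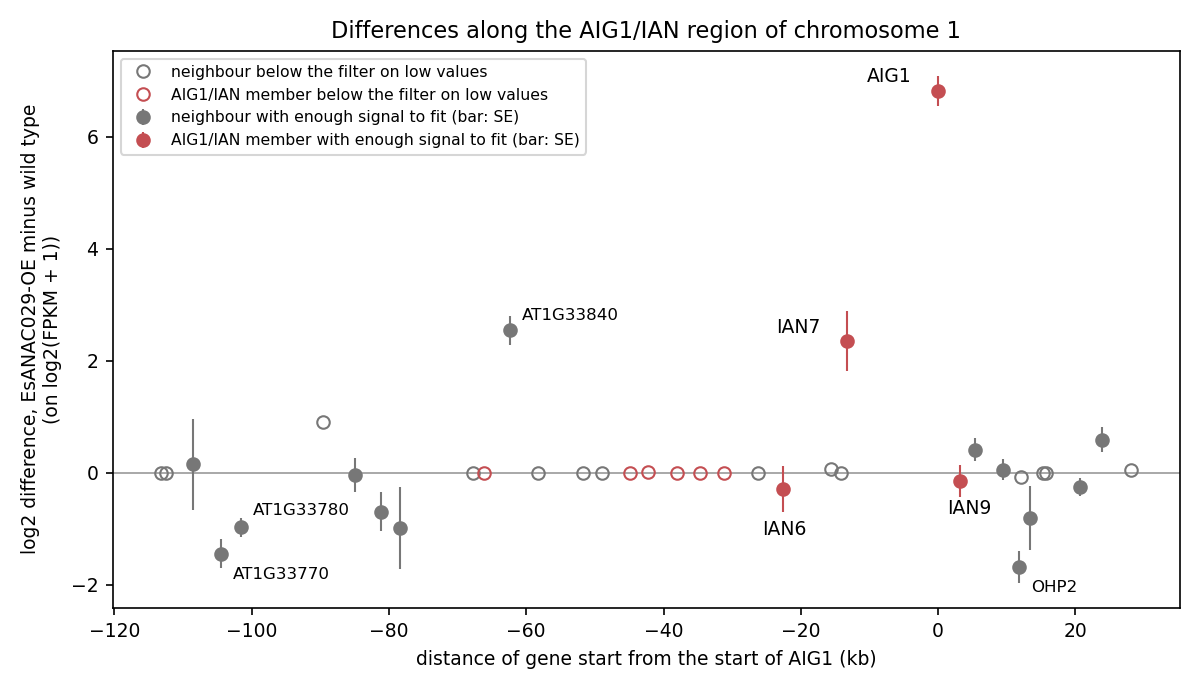
Log2 difference between EsANAC029-OE and wild type, on log2(FPKM + 1), of the 10 members (red) and their 27 neighbours (grey) against the distance of each gene's lower coordinate from the start of AIG1 in kb. Filled points carry the standard error and open points were below the filter on low values; AIG1 at 6.82 stands between IAN7 at 2.35 and IAN9 at −0.15, and AT1G33840 lies at 2.54.

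The genes around the receptor pathway through which AIG1 was discovered were examined as a list of 22 genes of effector-triggered immunity. The list was chosen with earlier results of these data known, so its counts, median and p-values are given as a description. Of 21 tested, 8 rose and none fell by limma, where 4.31% of all tested genes rose and 3.58% fell. At an unadjusted p under 0.05, 12 were higher, against 13.6% of all tested genes. The list's median log2 difference was 0.82, against −0.01 over all tested genes. PBS3, an enzyme of salicylic acid synthesis, went from 0.191, 1.37 and 0.476 FPKM to 90.2, 31.5 and 34.4 FPKM (log2 difference 4.87, SE 0.466, limma adjusted p = 0.00719). PBS3 reached 1 FPKM in 3 libraries only through EsANAC029-OE. EDS16 (isochorismate synthase), PAD4 (a partner of EDS1) and DTX47 (the transporter EDS5) rose by 3.98, 2.28 and 2.98 on the log2 scale (limma adjusted p = 0.0105, 0.0190 and 0.0214). The rise did not extend to the whole list. RPM1, RPS4, RRS1, RPP4 and PBS1 overlapped between the groups and were not called, with log2 differences of 0.18, −0.04, 0.09, 0.08 and 0.06.

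NDR1, a membrane protein needed for signalling by RPS2, rose from 14.2, 28.0 and 20.8 FPKM to 59.8, 68.3 and 70.4 FPKM (log2 difference 1.66, SE 0.258, limma adjusted p = 0.0232). RIN4, the protein that RPS2 guards, measured 20.4, 22.6 and 23.7 FPKM in wild type, and 32.2, 31.1 and 38.4 FPKM in EsANAC029-OE, without overlap and without a call (limma adjusted p = 0.0735). RPS2 itself was listed at 0 in every library. An antisense gene, AT4G26095, overlaps 92.9% of RPS2 and was also listed at 0, so the table gives no level for RPS2. Without EsANAC029-OE replicate 1, 10 genes of the list were called. Without wild-type replicates 1, 2 or 3 there were 1, 3 and 0, and without EsANAC029-OE replicate 2 there were 4.

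The unfolded protein response, a second setting in which clustered IAN genes have been described, was read from 20 genes. This list too was chosen with earlier results of these data known, and its counts, median and p-values are a description. Of 19 tested, 10 rose and none fell by limma, where 4.31% of all tested genes rose, and 16 were higher at an unadjusted p under 0.05, against 13.6% of all tested genes. The median log2 difference was 1.47, against −0.01 over all tested genes. BIP (BIP2), an HSP70 chaperone of the endoplasmic reticulum, rose from 33.8, 41.5 and 57.6 FPKM to 323, 129.9 and 152 FPKM (log2 difference 2.07, SE 0.395, limma adjusted p = 0.0335). MED37B (BIP3), its stress-induced relative, rose from 0.400, 1.29 and 0.459 FPKM to 55.6, 7.30 and 12.6 FPKM (log2 difference 3.47, SE 0.700, limma adjusted p = 0.0387). MED37B reached 1 FPKM in 3 libraries only through EsANAC029-OE. CRT3 and CRT2, lectin chaperones called calreticulins, rose by 1.93 and 1.62 on the log2 scale (limma adjusted p = 0.0388 and 0.0390). Not every gene of the list rose. Among those not called, IRE1A had a log2 difference of 0.02, ATIRE1-1 (IRE1B) −0.17, BZIP28 0.45 and BZIP60 1.47 (limma adjusted p = 0.976, 0.467, 0.277 and 0.123). Without EsANAC029-OE replicate 1, 14 genes of the list were called, and without replicates 2 and 3 there were 1 and 3. Without any 1 wild-type library, or with no filter on low values, 0 were called, and limma-voom called 4.

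**Figure D4:**
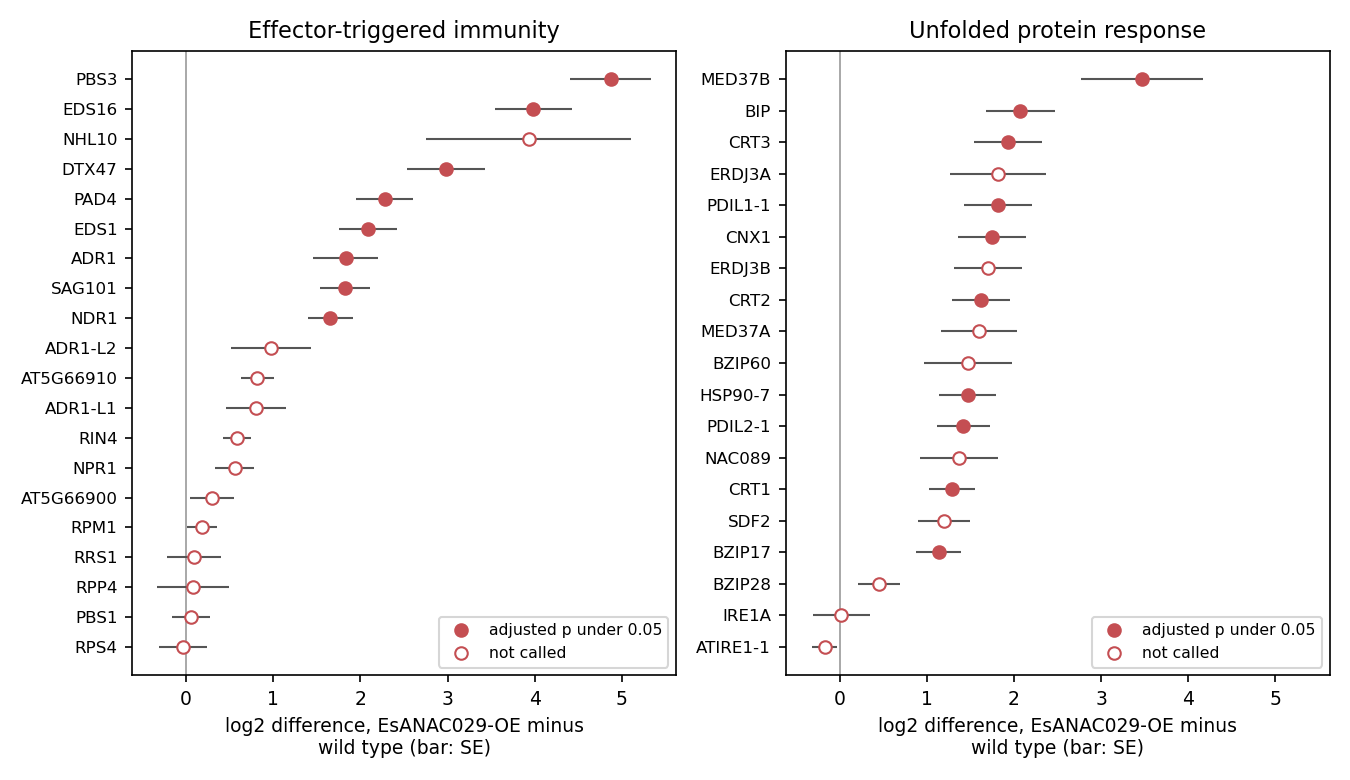
Log2 difference between EsANAC029-OE and wild type for tested genes of the lists of effector-triggered immunity (left) and unfolded protein response (right), with the standard error as a bar. Filled points had a limma adjusted p under 0.05, 8 on the left and 10 on the right, all of them higher in EsANAC029-OE. They are a description, because the lists were chosen with earlier results of these data known. PBS3 and MED37B, both filled, reached 1 FPKM in 3 libraries only through EsANAC029-OE.

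The order of the libraries within each genotype was set beside that of AIG1 for both lists. Wild-type replicate 2, the highest of its group for AIG1, was the highest for 14 of 21 tested immunity genes (66.7%) and for 4 of 19 genes of the unfolded protein response (21.1%), against 29.8% of all tested genes. EsANAC029-OE replicate 2, the lowest of its group for AIG1, was the lowest for 18 of 21 immunity genes (85.7%) and 15 of 19 genes of the unfolded protein response (78.9%), against 32.2% of all tested genes. At the top of that group AIG1 was nearly level, with 187 FPKM in replicate 3 and 186 FPKM in replicate 1. No share was taken for replicate 3, and that for replicate 1 is set beside IAN7, not AIG1. EsANAC029-OE replicate 1, the highest of its group for IAN7, was the highest for 16 of 21 immunity genes (76.2%) and for all 19 tested genes of the unfolded protein response, against 45.0% of all tested genes. These genes share their libraries and are not separate measurements, so the shares are given as a description.

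The genes most alike to AIG1 over the 6 libraries were SCPL16, a serine carboxypeptidase-like protein (Pearson's r = 0.9993 on log2(FPKM + 1)), WRKY50, a WRKY transcription factor (0.9985), FLZ2, a zinc finger protein (0.9985), GSTU8, a glutathione S-transferase (0.9972), and BAP2, which associates with the BON proteins that restrain cell death (0.9969). WRKY50 measured 3.05, 4.11 and 3.01 FPKM in wild type, and 44.8, 30.0 and 40.8 FPKM in EsANAC029-OE. As for AIG1, replicate 2 was the highest in wild type and the lowest in EsANAC029-OE, and the same held for SCPL16, FLZ2 and GSTU8. BAP2 differed, with 21.3, 22.5 and 21.1 FPKM in EsANAC029-OE replicates 1, 2 and 3. These genes were picked by their correlation with AIG1 over the same libraries, so a shared order follows in part from the choice. Any gene that separates the genotypes correlates well over so few libraries, and 1168 of 17221 tested genes had r above 0.9 with AIG1.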

How the data were processed

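Messenger RNA of 6 seedling libraries was sequenced as paired-end reads of 150 bases. The submitters' processing notes name the tools CASAVA 1.8, HISAT2, edgeR and the build TAIR10; which step each served, and how reads were counted, is not stated in what was read here. The deposited values are FPKM, a unit inferred from the values because the header names none, and gene length in bases (unit: other) stands beside them. Multiplied by gene length, the deposited values of a library were whole multiples of a single number (100% of values, tolerance 1e-06), which gave the reads quoted; a floor of 3 reads is 0.138 to 0.153 CPM. RefSeq TAIR10.1 coordinates were identical for 8652 of 8656 matched genes of chromosome 1.

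Genes were tested if they reached 1 FPKM in 3 libraries or more (17221 of 32962). Their log2(FPKM + 1) values were compared between the genotypes with limma 3.58.1 (trended variance, two-sided) in R 4.3.3, with Benjamini-Hochberg adjustment over all tested genes. With an overexpressor or wild-type library left out, the filter asked for as many libraries as the smaller group held. The members and the gene lists were chosen with earlier results of these data known. Named genes were all members, all genes between them, the family genes elsewhere, called flanking genes, up to 4 called genes with the smallest p of each list, genes that work with RPS2, and the 5 with a symbol most correlated with AIG1, which also had the highest mean FPKM of the members. One gene of the immunity list, which the counts include, is not reported here. Alternatives were library size alone, trimmed-mean (TMM) factors, limma-voom on recovered reads, a pseudocount of 0.1, no filter or one of 2 FPKM, a replicate block and leaving out each library. Coding sequences were aligned with Biopython 1.88.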

Additional observations from a re-analysis of the deposited data

How the results depend on the processing

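AIG1 and IAN7 were higher in EsANAC029-OE under every alternative, with log2 differences from 6.70 to 8.66 for AIG1 and from 1.71 to 7.47 for IAN7. The number of members called, 1, was 2 with library size alone, with TMM factors, with limma-voom and with a pseudocount of 0.1, IAN7 being the added gene, and 1 to 2 with a library left out. AIG1 and IAN7 entered the fit through EsANAC029-OE alone and the cluster was picked from this contrast. Nothing is therefore read from these counts of members. Over all genes 1359 were called, and 3126 with library size alone, 1378 with TMM factors, 821 with limma-voom and 1237 with a pseudocount of 0.1. With no filter 819 were called, and 54 to 3101 with a library left out. Samples with the same replicate number did not deviate together (correlations of −0.20, −0.05 and −0.10, 0 of 3 closest to their own number). No pairing by number was seen, but 3 libraries per group are too few to exclude one. With the number as a replicate block 16 genes, 1 member, 0 neighbours and 0 genes of either list were called. Neighbours called were 0 to 5 with a library left out, against 4. The immunity list gave 0 to 10 with a library left out, against 8. The list of the unfolded protein response gave 0 to 14 with a library left out, against 10, 17 with library size alone, 4 with limma-voom and 0 with no filter. Both lists' counts under the alternatives were chosen after seeing the data. The causes were not tested. IAN6 changed sign without EsANAC029-OE replicate 1, and IAN9 with library size alone and without wild-type replicate 2 or EsANAC029-OE replicate 2.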
